A study of Mus musculus with 6 samples.

Results

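The endoplasmic reticulum (ER) folds and exports the membrane and secreted proteins of a cell, and 33 mouse genes that carry out or control this work are described here. They encode ER chaperones, folding enzymes, degradation and translocation factors, stress sensors, and stress transcription factors with some of their targets. The members are the genes from a list of 34 symbols that had at least 10 counts summed over 6 RNA-seq libraries. They make up 33 of the 14535 genes in the count table, and Trib3 was not analysed here. The smallest totals among the members were 27 counts for Asns, 38 for Chac1 and 390 for Ddit3.

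The libraries were made from splenic type 2 conventional dendritic cells (cDC2s), antigen-presenting cells in which the transcription factor IRF4 is active. In the IRF4-deficient group (3 libraries, CD11c-Cre Irf4fl/fl mice), Cre recombinase driven by the CD11c (Itgax) promoter removes the loxP-flanked part of Irf4 wherever CD11c is expressed, which includes some macrophages. The other group holds 3 wild-type (WT) libraries, and all mice were C57BL/6. No treatment, age or sort gate is stated in the labels, and no group carries Cre alone. Whether each library is a mouse of its own is not said. The p-values therefore weigh the difference between groups against the spread of these libraries within a group, and that spread may be technical.

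Proteins enter the ER through the translocon, are folded by chaperones such as BiP (Hspa5) and by disulfide isomerases, and are sent back to the cytosol for degradation when folding fails. Unfolded proteins activate the sensors IRE1 (Ern1), ATF6 and PERK (Eif2ak3), which start the unfolded protein response. IRE1 splices the Xbp1 mRNA, ATF6 is cleaved to give a transcription factor, and PERK phosphorylates the initiation factor eIF2, after which ATF4 and then CHOP (Ddit3) can accumulate. Counts per gene show neither the splicing of Xbp1 nor the translation of Atf4.

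Many ER chaperone genes carry the ER stress element, a promoter sequence that ATF6 binds together with the factor NF-Y. Its letters, CCAAT and CCACG separated by 9 bases, were searched on both strands of RefSeq promoter windows (GRCm38.p6). Each window runs from 250 bases before to 50 bases after a start site. Windows were found for 30 of the 33 members, and Atf6, Hyou1 and Manf were not searched for want of one. A match was present in 8 of these 30 (26.7%) and in 0.119% of all 32851 promoters in that table. The matches are shown because they are the promoter feature that several chaperone genes share, with the fixed letters in capitals. Distances run from the RefSeq start site to the upstream end of the match, and the strand is that on which the letters read.
Hspa5, chr2:34772025-34772043, + strand, 65 bases upstream: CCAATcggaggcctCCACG
Hsp90b1, chr10:86705638-86705656, - strand, 212 bases upstream: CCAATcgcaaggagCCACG
Hsp90b1, chr10:86705533-86705551, + strand, 107 bases upstream: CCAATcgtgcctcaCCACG
Calr, chr8:84847075-84847093, + strand, 162 bases upstream: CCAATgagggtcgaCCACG
Canx, chr11:50325800-50325818, - strand, 145 bases upstream: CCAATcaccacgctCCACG
Pdia6, chr12:17266491-17266509, + strand, 98 bases upstream: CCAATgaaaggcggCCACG
Dnajc3, chr14:118937827-118937845, + strand, 105 bases upstream: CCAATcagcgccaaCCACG
Creld2, chr15:88819520-88819538, - strand, 126 bases upstream: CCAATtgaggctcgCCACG
Syvn1, chr19:6046532-6046550, + strand, 44 bases upstream: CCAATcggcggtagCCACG

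A shorter form, ER stress element II with ATTGG and CCACG separated by 1 base, was present in 2 members and in 0.0365% of all promoters.
Herpud1, chr8:94386377-94386387, + strand, 52 bases upstream: ATTGGgCCACG
Dnajb11, chr16:22857852-22857862, + strand, from base 8 of the transcript: ATTGGcCCACG
No match of the 6 motifs searched overlapped another in a member window. A match of letters is a description of the sequence and does not show that a factor binds there.

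Sequencing depth was 7949462 to 10609420 counts in the IRF4-deficient libraries and 7421605 to 11459920 in the WT libraries. Levels are given as CPM, a gene's count relative to the TMM-scaled total of its library, in the order of replicates 1, 2 and 3. Irf4 averaged 80.01 ± 13.2 CPM in the IRF4-deficient group, against 310.9 ± 29.6 CPM in WT (SD, n = 3 each), with no overlap between libraries. The counts of called genes in the lists below stand beside 9.87% of all tested genes called higher and 10.5% lower (adjusted p under 0.05). Of 12 cDC2 markers 2 rose (Itgax and Itgam) and 6 fell (Cd4, Zbtb46, Flt3, Cd209a, H2-Aa and H2-Ab1). The sums of the 12, 18890 to 19130 CPM in the IRF4-deficient libraries and 20090 to 22040 CPM in the WT libraries, did not overlap. Plasma cells are rich in ER proteins, and 6 of their markers had sums of 27.3 to 50.8 CPM in the IRF4-deficient libraries and 26.1 to 49.8 CPM in the WT libraries, which overlapped. Of the 2 that could be tested 0 rose and 1 fell, Igj, with 2.49, 2.97 and 5.68 CPM in the IRF4-deficient libraries, against 15.4, 4.73 and 7.38 CPM in the WT libraries (edgeR adjusted p = 0.0454). Sdc1, Derl3 and Fkbp11 had at most 3.12, 1.196 and 0.41 CPM in any library. Among 16 immediate early genes, which respond within minutes to handling or signals, 0 were called higher and 3 lower, and WT replicate 3 stood apart. Their summed level was 2920, 3270 and 2715 CPM in the IRF4-deficient libraries, against 4881, 4261 and 1806 CPM in the WT libraries. Of 12 red pulp macrophage markers 7 rose and 0 fell, with sums of 1700 to 3153 CPM in the IRF4-deficient libraries and 999.0 to 1327 CPM in WT libraries. Of 7 tested monocyte markers 5 rose and 0 fell, with sums of 2447 to 2707 CPM in the IRF4-deficient libraries and 1041 to 1332 CPM in WT libraries. Of 8 cDC1 markers 5 rose (Xcr1, Clec9a, Irf8, Tlr3 and Cadm1) and 1 fell (Batf3), with sums of 307.3 to 416.6 CPM in the IRF4-deficient libraries and 240.7 to 250.8 CPM in the WT libraries. The part of such cells in the results on ER genes was not tested, and in bulk RNA fewer cells of a type and less RNA per cell cannot be told apart.

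In IRF4-deficient cDC2s most of the ER folding machinery was not called as changed, while 6 of the 31 members with enough counts to test fell and 0 rose. The genes that fell were the sensors Atf6 and Eif2ak3, the chaperone gene Hspa5, the chaperone cofactor gene Sdf2l1, the translocon-associated gene Ssr1 and the stress target Sesn2. A gene was called at an adjusted p under 0.05 (edgeR quasi-likelihood test, Benjamini-Hochberg adjustment over 11934 genes). Overlap between groups is described as well, but played no part in the calls, and its share over all tested genes is not given here. The 6 genes are 19.4% of the tested members, where 10.5% of all tested genes were called lower and 9.87% higher. The median log2 fold change (IRF4-deficient over WT, on which -1 is a halving) was -0.05 over the members and 0.0026 over all tested genes. Herpud1 had an unadjusted edgeR p under 0.05 but was not called (edgeR adjusted p = 0.143). With DESeq2, with limma-voom and with the replicate block the same 6 members were called lower, where 10.6%, 10.5% and 9.86% of all genes were.

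**Figure D1:**
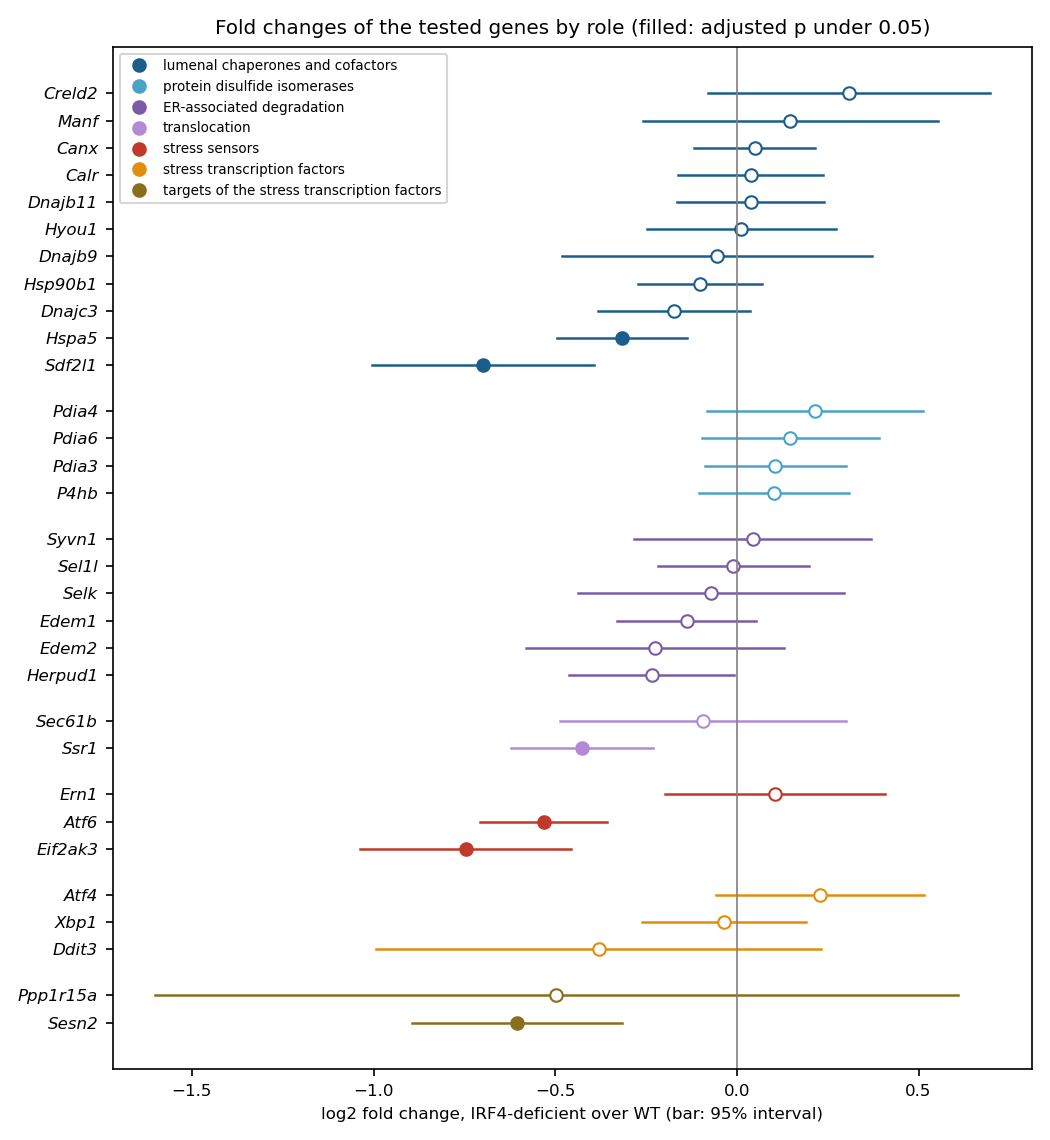
Log2 fold change (IRF4-deficient over WT, x axis) of the 31 tested genes, grouped by role, with 95% intervals. Filled points have an adjusted p under 0.05. The 6 filled points lie between -0.75 and -0.32, and the 4 disulfide isomerases lie between 0.10 and 0.21.

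Among the 15 chaperones and folding enzymes 2 fell (13.3%) and 0 rose, where 10.5% of all tested genes were called lower. The median log2 fold change of the 15 was 0.04. Hspa5 encodes BiP, the ER member of the Hsp70 family, which binds unfolded chains and also holds the stress sensors inactive. The gene had 590.2, 590.9 and 598.3 CPM in the IRF4-deficient libraries, against 831.3, 720.7 and 663.8 CPM in the WT libraries. The groups did not overlap, the IRF4-deficient libraries lay close together, and WT replicate 1 was the highest. Hspa5 (GRCm38 chromosome 2, 34771970 to 34777547, plus strand) fell to 80.3% of the WT level (log2 fold change -0.32, SE 0.08, edgeR adjusted p = 0.0112). Without WT replicate 1 the log2 fold change was -0.22 and the edgeR adjusted p 0.0695, so 5 members were then called lower, where 9.46% of all genes were.

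Besides its ER stress element, the Hspa5 window held TGACGTG, a core that ATF6 and XBP1 bind, which was found in no other member window and in 2.01% of all promoters. Among called genes with a window, Hspa5 alone has both motifs. The 250 bases upstream of its RefSeq start site (chr2:34771840-34772089, + strand) are therefore shown, with the fixed letters of both motifs in capitals.
Hspa5: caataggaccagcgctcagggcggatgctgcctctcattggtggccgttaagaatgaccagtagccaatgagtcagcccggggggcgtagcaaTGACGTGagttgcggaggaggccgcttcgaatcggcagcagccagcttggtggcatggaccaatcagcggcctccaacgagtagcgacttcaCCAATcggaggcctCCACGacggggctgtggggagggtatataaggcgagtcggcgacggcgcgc

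Sdf2l1 encodes a small ER protein that works with the co-chaperone Dnajb11 in the BiP cycle. Its CPM was 34.2, 31.0 and 29.5 in the IRF4-deficient libraries, against 55.7, 43.6 and 55.2 in the WT libraries. Again the groups did not overlap. Sdf2l1 (chromosome 16, 17130138 to 17132383, minus strand) fell to 61.6% of WT (log2 fold change -0.70, SE 0.15, edgeR adjusted p = 0.00167). It was called lower in each fit that left out a library, with log2 fold changes from -0.81 to -0.64. Its partner Dnajb11 averaged 125.8 ± 5.84 CPM in IRF4-deficient libraries, against 122.5 ± 3.42 CPM in WT (SD, n = 3 each), and was not called. None of the 6 motifs searched was found in the Sdf2l1 window, whose 250 upstream bases (chr16:17132384-17132633, - strand) are given beside those of Hspa5 because both genes fell.
Sdf2l1: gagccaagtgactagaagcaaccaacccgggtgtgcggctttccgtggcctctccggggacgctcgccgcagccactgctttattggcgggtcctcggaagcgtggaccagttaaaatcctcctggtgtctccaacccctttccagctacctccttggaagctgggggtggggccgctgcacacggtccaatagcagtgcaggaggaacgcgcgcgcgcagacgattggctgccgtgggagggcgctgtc

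The other abundant chaperone genes did not pass the test. Hsp90b1, the ER Hsp90 known for folding Toll-like receptors and integrins, had 661.2, 704.8 and 785.4 CPM in the IRF4-deficient libraries, against 767.8, 732.0 and 810.8 CPM in the WT libraries. These ranges overlapped, and the log2 fold change was -0.10 (95% interval -0.27 to 0.07). Canx, the gene of the membrane-bound lectin chaperone calnexin, had 415.0, 393.8 and 389.9 CPM in the IRF4-deficient libraries, against 372.8, 382.8 and 403.5 CPM in the WT libraries, with a log2 fold change of 0.05 (95% interval -0.12 to 0.21). Calr, the gene of its soluble relative calreticulin, averaged 180.6 ± 16.6 CPM in IRF4-deficient libraries, against 176.0 ± 8.49 CPM in WT. Hsp90b1 shares 415 exonic bases with a pseudogene on the opposite strand, and the strand setting of the counting is not known here.

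The other cofactors of BiP were not called. Hyou1, a nucleotide exchange factor for BiP, averaged 69.2 ± 3.56 CPM in IRF4-deficient libraries, against 68.7 ± 8.87 CPM in WT. Dnajc3, a co-chaperone that also restrains PERK, averaged 179.2 ± 4.54 CPM in the IRF4-deficient group and 202.0 ± 26.3 CPM in the WT group. Dnajb9, a co-chaperone that keeps IRE1 inactive through BiP, had 36.9, 32.0 and 44.7 CPM in the IRF4-deficient libraries, against 50.1, 41.6 and 26.2 CPM in the WT libraries. For Dnajb9 the WT libraries held both the highest and the lowest value.

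Manf and Creld2 encode small stress-inducible proteins that leave the ER. Manf had a log2 fold change of 0.15 (SE 0.19). Creld2 had 22.2, 24.7 and 19.3 CPM in the IRF4-deficient libraries, against 17.6, 17.0 and 18.9 CPM in the WT libraries. Although the Creld2 groups did not overlap, the gene was not called (log2 fold change 0.31, SE 0.18, edgeR adjusted p = 0.275).

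Protein disulfide isomerases form and rearrange disulfide bonds, and Pdia3 also serves in the MHC class I peptide-loading complex. Of the 4 genes 0 were called, where 9.87% of all tested genes were called higher and 10.5% lower. All 4 had positive log2 fold changes. Pdia3 had 284.7, 265.0 and 335.4 CPM in the IRF4-deficient libraries, against 279.5, 269.2 and 273.9 CPM in the WT libraries. Pdia4 averaged 57.5 ± 10.9 CPM in IRF4-deficient libraries, against 49.6 ± 1.27 CPM in WT. Pdia6 averaged 80.7 ± 8.20 CPM in the IRF4-deficient group and 72.8 ± 2.07 CPM in the WT group, and P4hb 171.7 ± 14.3 CPM in the IRF4-deficient group and 160.2 ± 11.7 CPM in the WT group. All 4 genes overlapped between the groups.

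Summed over the 15 chaperones and folding enzymes, the level was 2946, 2966 and 3041 CPM in the IRF4-deficient libraries, against 3244, 3069 and 3140 CPM in the WT libraries. The groups did not overlap, with means of 2985 CPM in the IRF4-deficient group and 3151 CPM in WT. Without Hspa5 the sum of the other 14 genes was 2356, 2376 and 2443 CPM in the IRF4-deficient libraries, against 2412, 2349 and 2477 CPM in the WT libraries, and the groups overlapped. Shares of the sum of 15 do not depend on how libraries are scaled. Hspa5 made up 20.03, 19.9 and 19.7% in the IRF4-deficient libraries, against 25.6, 23.5 and 21.1% in the WT libraries. Sdf2l1 made up 1.16, 1.05 and 0.970% in the IRF4-deficient libraries, against 1.72, 1.42 and 1.76% in the WT libraries. Both shares were lower in each IRF4-deficient library than in any WT library, whereas those of Hsp90b1 overlapped.

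Intervals of the log2 fold change bound what these libraries could have missed. For 12 of the 13 chaperones and folding enzymes not called, the 95% interval lay within a 1.5-fold change in either direction, and for all 13 within a 2-fold change. Creld2 was the exception at 1.5-fold, with an interval of -0.08 to 0.70. Over the 25 members not called, the interval lay within a 2-fold change for 24, and Ppp1r15a was the exception.

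Set by promoter, 10 tested members had an ER stress element or element II, of which 1 (Hspa5) fell and 0 rose, with a median log2 fold change of 0.04. Of the 18 other tested members with a promoter window 4 fell and 0 rose, with a median of -0.08. Atf6, which also fell, had no window and is in neither group. Over all tested genes 10.5% were called lower. The difference between the members with and without an element was not tested.

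**Figure D2:**
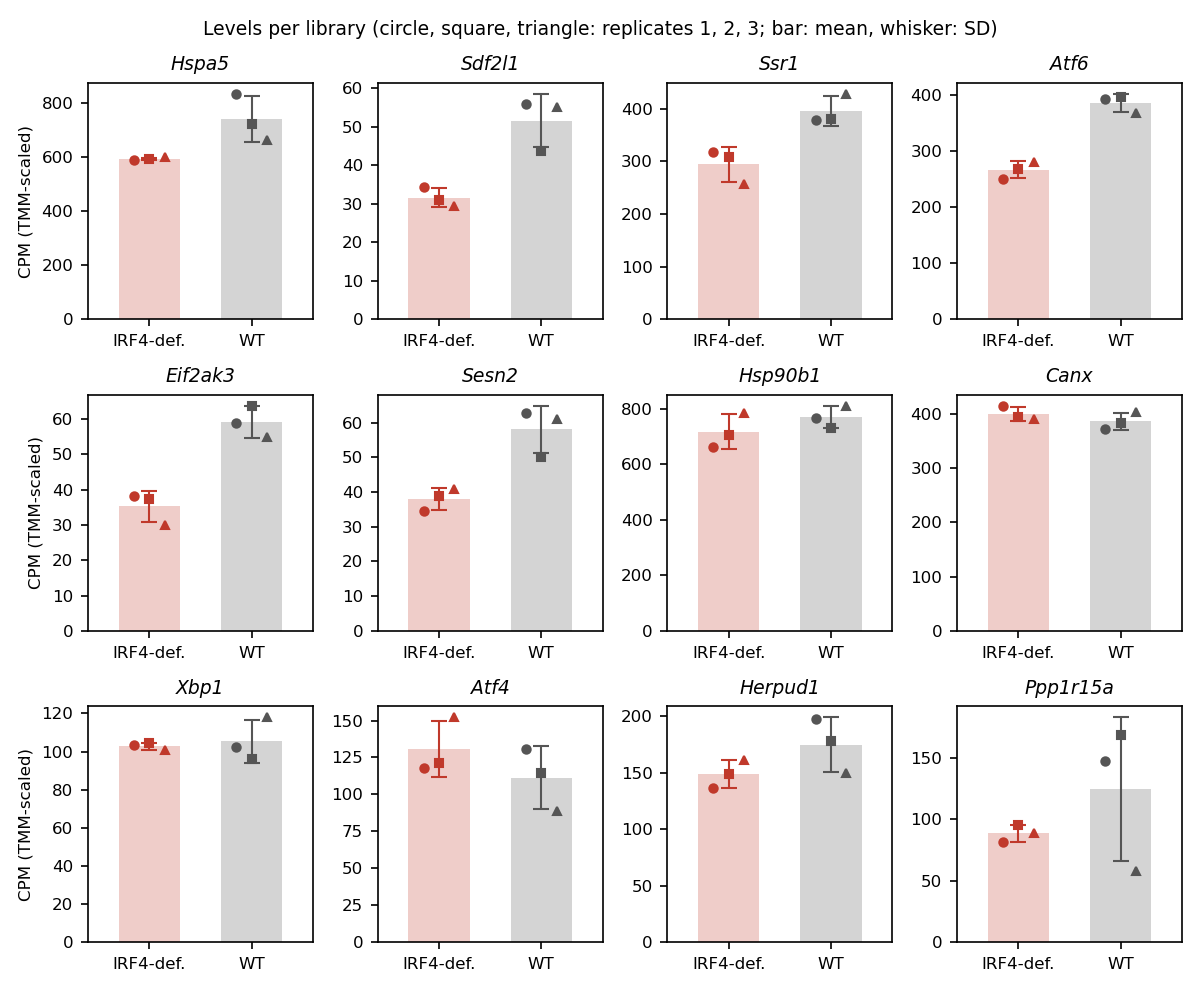
TMM-scaled CPM of 12 genes in each library, with IRF4-deficient on the left and WT on the right of each panel. Points are single libraries, shown with the mean and SD (n = 3). Hspa5, Sdf2l1, Ssr1, Atf6, Eif2ak3 and Sesn2 show no overlap between the groups, and WT replicate 3 is the lowest library for Ppp1r15a.

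Of the 3 stress sensors 2 fell, where 10.5% of all tested genes were called lower. Atf6 encodes an ER membrane protein that moves to the Golgi under stress, where its cytosolic part is released as a transcription factor for chaperone genes. Its CPM was 250.5, 268.1 and 280.5 in the IRF4-deficient libraries, against 392.9, 395.4 and 367.1 in the WT libraries. The groups lay well apart, with narrow spread in both. Atf6 (chromosome 1, 170704674 to 170867771, minus strand) fell to 69.1% of WT (log2 fold change -0.53, SE 0.08, edgeR adjusted p = 9.96e-05). Its relative Atf6b, named after its values were seen, averaged 59.2 ± 11.9 CPM in IRF4-deficient libraries, against 68.8 ± 2.68 CPM in WT, and was not called (edgeR adjusted p = 0.312).

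Eif2ak3 encodes PERK, the ER membrane kinase that slows translation under stress, and had the most negative log2 fold change of the tested members. Its CPM was 38.2, 37.5 and 30.1 in the IRF4-deficient libraries, against 58.8, 63.7 and 54.8 in the WT libraries, without overlap. Eif2ak3 (chromosome 6, 70844515 to 70905245, plus strand) fell to 59.6% of WT (log2 fold change -0.75, SE 0.14, edgeR adjusted p = 0.000586). Both sensors were called lower in each fit that left out a library. Eif2ak3 shares 485 exonic bases with Gm43292, a provisional gene model on the opposite strand, and reads of the pair cannot be told apart without a known strand setting.

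IRF4 binds with ETS family factors to the composite letters GGAA and GAAA separated by 2 bases, which were present in the windows of 2 members (6.67%) and in 2.72% of all promoters. The members were Eif2ak3, which fell, and Dnajb11, which was not called. The interferon response letters, GAAA and GAAA separated by 2 bases, were present in Ppp1r15a, 3.33% of the members, and in 3.44% of all promoters. The ATF4 and CHOP composite letters TGATGNAAT were present in 0 members and in 0.965% of all promoters. Among called genes with a window, which leaves out Atf6, Eif2ak3 alone has the IRF and ETS letters. They begin 195 bases upstream of its start site. The 250 bases upstream of Eif2ak3 (chr6:70844265-70844514, + strand) are therefore shown, with the fixed letters in capitals.
Eif2ak3: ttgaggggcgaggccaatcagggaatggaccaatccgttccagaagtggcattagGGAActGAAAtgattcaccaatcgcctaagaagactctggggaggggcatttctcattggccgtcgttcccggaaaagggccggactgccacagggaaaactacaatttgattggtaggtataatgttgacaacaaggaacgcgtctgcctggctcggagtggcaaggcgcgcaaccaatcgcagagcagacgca

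The other eIF2 kinase genes, named after their values were seen, were not called. Eif2ak1, the haem-regulated kinase, averaged 101.6 ± 9.54 CPM in IRF4-deficient libraries, against 108.6 ± 5.51 CPM in WT. Eif2ak2, the double-stranded RNA sensor PKR, averaged 118.7 ± 20.5 CPM in the IRF4-deficient group and 140.3 ± 22.3 CPM in the WT group. Eif2ak4, the amino acid sensor GCN2, averaged 79.2 ± 10.4 CPM in the IRF4-deficient group and 93.4 ± 5.95 CPM in the WT group. Whether their changes differ from that of Eif2ak3 was not tested.

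Ern1, the gene of IRE1, was the sensor that was not called. Its CPM was 46.4, 53.0 and 51.4 in the IRF4-deficient libraries, against 37.3, 52.0 and 50.5 in the WT libraries. The ranges overlapped, and WT replicate 1 was the lowest library.

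Among the 7 stress transcription factors and targets 5 could be tested, of which 1 fell (Sesn2) and 0 rose. Over all tested genes 10.5% were called lower. The median log2 fold change of the 5 was -0.38, against 0.04 for the 15 chaperones and folding enzymes. That -0.38 is the value of Ddit3 itself, which was not called. The 3 transcription factors had a median of -0.04 with 0 called, and the 2 tested targets a median of -0.55. The difference between the stress and chaperone sets was not tested. Xbp1, whose spliced form drives secretory genes, had 103.3, 104.3 and 100.7 CPM in the IRF4-deficient libraries, against 102.5, 95.9 and 118.0 CPM in the WT libraries. Those values overlapped, and the log2 fold change was -0.04 (95% interval -0.26 to 0.19).

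Atf4, the main effector of eIF2 phosphorylation, had 117.9, 121.4 and 152.2 CPM in the IRF4-deficient libraries, against 130.7, 114.5 and 88.8 CPM in the WT libraries. IRF4-deficient replicate 3 was the highest and WT replicate 3 the lowest library, and Atf4 was not called (edgeR adjusted p = 0.276). Ddit3, the gene of the stress factor CHOP, had the lowest counts of the tested members. Its CPM was 6.35, 5.31 and 7.13 in the IRF4-deficient libraries, against 6.92, 9.82 and 7.65 in the WT libraries. The log2 fold change of Ddit3 was -0.38 with an interval of -0.99 to 0.23, which includes both no change and a fall of nearly 2-fold.

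Sesn2 encodes a stress-induced inhibitor of mTORC1 signalling and was the target that fell. Its CPM was 34.6, 38.8 and 40.9 in the IRF4-deficient libraries, against 62.8, 50.2 and 61.1 in the WT libraries, without overlap. Sesn2 (chromosome 4, 132492032 to 132510501, minus strand) fell to 65.8% of WT (log2 fold change -0.61, SE 0.14, edgeR adjusted p = 0.00344). The call held in each fit that left out a library.

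Ppp1r15a encodes GADD34, which directs the phosphatase that reverses eIF2 phosphorylation. The gene had 81.3, 95.3 and 89.2 CPM in the IRF4-deficient libraries, against 147.1, 168.2 and 58.3 CPM in the WT libraries. WT replicate 3, which also had the lowest sum of immediate early genes, lay below each IRF4-deficient library, and the other WT libraries lay above all of them. Ppp1r15a was not called (log2 fold change -0.50, SE 0.42, edgeR adjusted p = 0.507). Without WT replicate 3 the log2 fold change was -0.83 and the edgeR adjusted p 7.79e-05, the lowest over its alternatives, which reached 0.821.

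Asns and Chac1, ATF4 targets for asparagine synthesis and glutathione breakdown, had too few counts to be tested. Asns had 8, 3 and 0 counts in the IRF4-deficient libraries, against 8, 0 and 8 counts in the WT libraries. Chac1 had 0, 1 and 0 counts in the IRF4-deficient libraries, against 13, 0 and 24 counts in the WT libraries. Its counts came almost entirely from WT replicates 1 and 3, while WT replicate 2, the deepest library, had 0. With no filter on low counts edgeR called Chac1 lower (adjusted p = 0.022) although the groups overlapped, which made 7 members lower where 8.69% of all genes were.

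**Figure D3:**
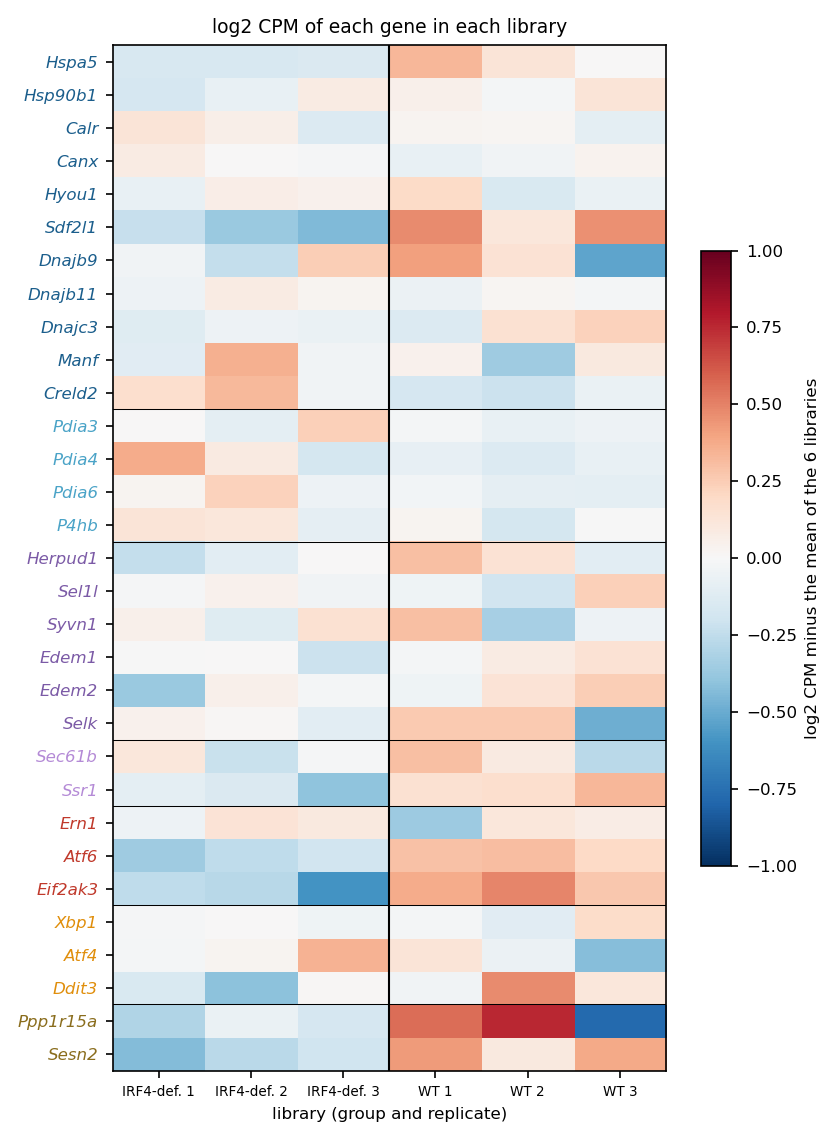
Log2 CPM of the 31 tested genes (rows, by role) in the 6 libraries (columns), as the difference from the gene's mean over the libraries. Blue is lower and red higher. Atf6, Eif2ak3, Hspa5, Sdf2l1, Ssr1 and Sesn2 are lower in each IRF4-deficient than in each WT library, and Ppp1r15a is lowest in WT replicate 3.

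Of the 6 genes of ER-associated degradation, which return misfolded proteins to the cytosol, 0 were called. Among all tested genes 10.5% were called lower and 9.87% higher. Herpud1, a stress-induced scaffold of the degradation complex, had 136.2, 148.9 and 160.8 CPM in the IRF4-deficient libraries, against 197.3, 177.7 and 149.4 CPM in the WT libraries. WT replicate 3 again had the lowest WT value, inside the IRF4-deficient range. The edgeR adjusted p of Herpud1 was 0.143, and 0.04995 without WT replicate 3 (up to 0.469 over its alternatives). Without that library 8 members were called lower, the 6 above with Herpud1 and Ppp1r15a, where 7.9% of all genes were.

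Sel1l and Syvn1 encode the adaptor and the ubiquitin ligase at the centre of this complex. Sel1l averaged 271.1 ± 6.83 CPM in IRF4-deficient libraries, against 273.1 ± 41.6 CPM in WT. Syvn1 averaged 47.8 ± 4.53 CPM in the IRF4-deficient group and 46.6 ± 10.3 CPM in the WT group. Edem1 and Edem2, which mark glycoproteins for degradation, had log2 fold changes of -0.14 (SE 0.09) and -0.23 (SE 0.17). Selk, a selenoprotein of the ER membrane, averaged 40.5 ± 2.18 CPM in the IRF4-deficient group and 42.5 ± 11.5 CPM in the WT group. All 5 genes overlapped between the groups.

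Of the translocation genes Ssr1 fell and Sec61b was not called. Ssr1 encodes the alpha subunit of the translocon-associated protein complex, which helps certain proteins into the channel. Its CPM was 318.2, 308.1 and 257.0 in the IRF4-deficient libraries, against 378.4, 381.5 and 427.7 in the WT libraries, without overlap. Ssr1 (chromosome 13, 37966605 to 37994217, minus strand) fell to 74.4% of WT (log2 fold change -0.43, SE 0.09, edgeR adjusted p = 0.00248), and was called lower in each fit that left out a library. Sec61b, a channel subunit, averaged 22.3 ± 2.59 CPM in IRF4-deficient libraries, against 23.8 ± 4.63 CPM in WT.

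Levels of different genes were compared per length, as CPM per kilobase of annotated exon (GENCODE M21), a scale that lowers genes with long annotated isoforms. The CPM sums and shares given above were not scaled by length. The highest levels were those of Hsp90b1 (177.9 in IRF4-deficient and 191.0 in WT) and Hspa5 (140.2 in IRF4-deficient and 174.6 in WT). Pdia3, Canx, Herpud1, Calr and P4hb followed, with means of 90.7, 83.7, 69.3, 61.9 and 58.0 CPM per kilobase over the 6 libraries, and Ddit3 had no single annotated match. The sensors differed from each other, with Atf6 at 28.9 in IRF4-deficient and 41.7 in WT, and Eif2ak3 at 5.85 in IRF4-deficient and 9.81 in WT. By the mean of the 6 libraries Ern1 was the lowest tested member on this scale, at 6.15 in IRF4-deficient and 5.71 in WT.

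**Figure D4:**
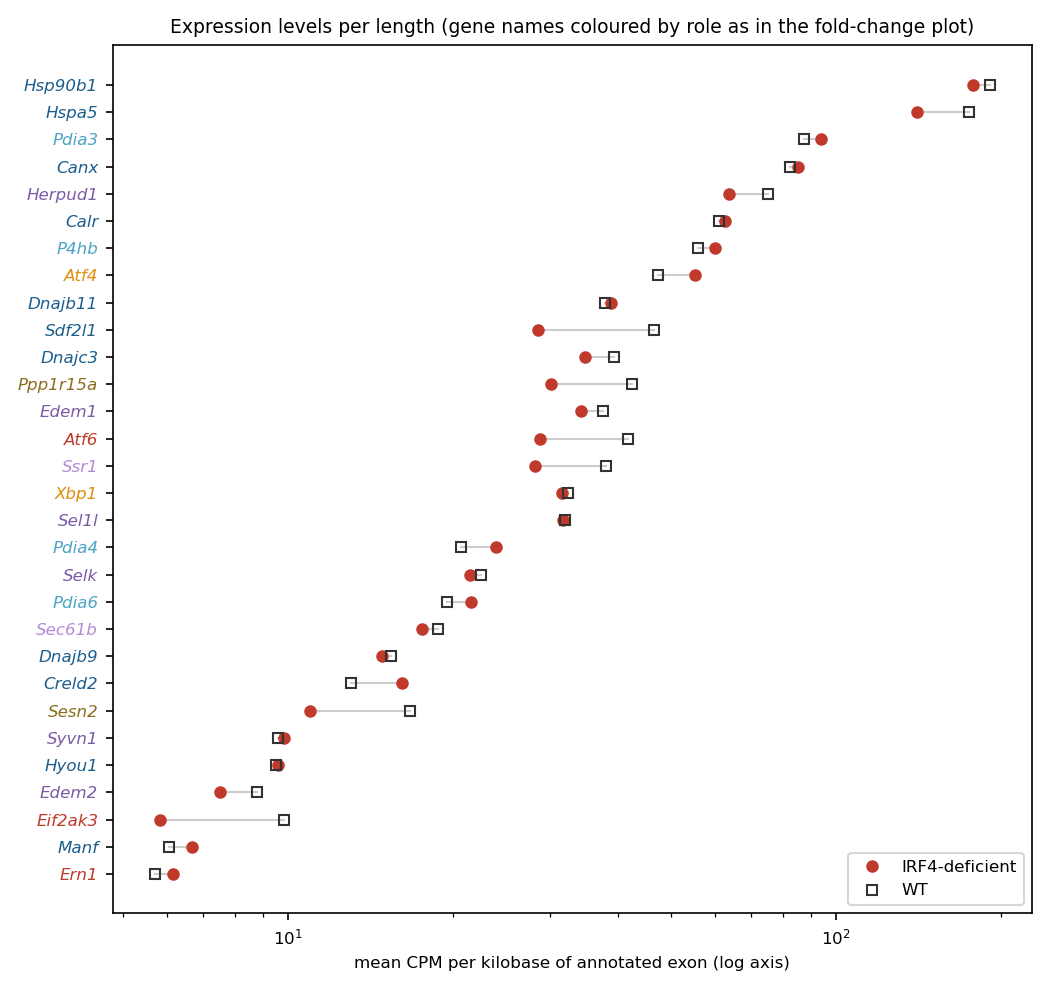
Mean CPM per kilobase of annotated exon (log axis) of the tested genes that have a single annotated match, in IRF4-deficient and WT cells, ordered by the mean of the 6 libraries. Hsp90b1 and Hspa5 have the highest levels and Ern1 the lowest by that mean.

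Further genes of the same processes were described from lists outside the members. The counts of each list below stand beside 9.87% of all tested genes called higher and 10.5% called lower. Of 22 tested ER folding and oxidation genes 3 rose and 1 fell, with a median log2 fold change of 0.11. Ero1lb, an oxidase that renews disulfide isomerases, had 16.6, 13.6 and 14.9 CPM in the IRF4-deficient libraries, against 43.6, 52.8 and 56.1 CPM in the WT libraries. The groups lay far apart (log2 fold change -1.75, SE 0.16, edgeR adjusted p = 2.05e-07), a larger fall than that of any tested member. Txndc5, a disulfide isomerase, averaged 46.3 ± 5.74 CPM in IRF4-deficient libraries, against 28.5 ± 2.26 CPM in WT, a rise of 1.62-fold. Mesdc2, a chaperone for LDL receptor family proteins, averaged 75.7 ± 2.11 CPM in the IRF4-deficient group and 46.5 ± 4.34 CPM in the WT group. Dnajc10, a disulfide reductase, was the third that rose (edgeR adjusted p = 0.0370). It was not called with the replicate block (adjusted p 0.0581) or in 5 of the 6 fits that left out a library, all but that without IRF4-deficient replicate 3 (adjusted p 0.0607 to 0.167).

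Of 19 further degradation genes tested, Os9, a lectin that recognises trimmed glycans, rose and Ubac2 fell, with a median log2 fold change of 0.02. Os9 averaged 132.9 ± 7.45 CPM in IRF4-deficient libraries, against 102.1 ± 4.78 CPM in WT, and was not called without WT replicate 2 (edgeR adjusted p 0.0639). Ubac2 had a log2 fold change of -0.51 (SE 0.12). Of 25 tested genes of the translocon, signal peptidase and oligosaccharyl transferase 0 rose and 1 fell, the signal peptidase subunit gene Sec11c (log2 fold change -0.41, SE 0.12). Sec11c was not called without IRF4-deficient replicate 2, WT replicate 2 or WT replicate 3 (edgeR adjusted p 0.107, 0.106 and 0.0626).

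Of 18 further sensors and regulators tested 1 rose and 1 fell, with a median log2 fold change of -0.09. Nfe2l2, the gene of the oxidative stress factor NRF2, which PERK can phosphorylate, averaged 166.8 ± 38.2 CPM in IRF4-deficient libraries, against 93.2 ± 19.7 CPM in WT (1.79-fold higher, edgeR adjusted p = 0.00794). Traf2, an adaptor recruited by IRE1, was called lower (edgeR adjusted p = 0.0338). It was not called with the replicate block (adjusted p 0.0510) or in 5 of the 6 fits that left out a library, all but that without IRF4-deficient replicate 1 (adjusted p 0.0568 to 0.142).

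Of 23 further ATF4 and CHOP targets tested 2 rose and 2 fell, with a median log2 fold change of 0.02. Atf3, a stress factor gene that is also in the immediate early list, averaged 4.92 ± 1.63 CPM in IRF4-deficient libraries, against 17.5 ± 4.86 CPM in WT (edgeR adjusted p = 0.000118). Mthfd2, a mitochondrial folate enzyme, fell to 28.1 ± 3.82 CPM in the IRF4-deficient group, against 55.9 ± 4.79 CPM in the WT group. Nupr1, a small stress-induced chromatin protein, rose to 10.7 ± 1.27 CPM in the IRF4-deficient group, against 2.65 ± 0.859 CPM in the WT group. Slc7a5, an amino acid transporter gene, rose 1.70-fold, but was not called without WT replicate 2 (edgeR adjusted p 0.0615).

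None of the 20 aminoacyl-tRNA synthetase genes, several of them ATF4 targets, was called by edgeR, with a median log2 fold change of 0.13. Iars had the smallest p of these genes (edgeR adjusted p = 0.0666). Of 19 further XBP1 targets tested 1 rose (Dnajc10, above) and 0 fell, with a median of 0.13. Of 6 tested candidates for cleavage by IRE1 the integrin chain gene Itgb2 rose (log2 fold change 0.57) and the chemokine receptor gene Ccr7 fell (-3.02). The candidates came from general knowledge, and whether Itgb2 and Ccr7 are IRE1 targets in cDC2s is uncertain. Counts do not show cleavage. Of 15 heat shock genes outside the ER 0 rose and 1 fell, Dnaja1, which averaged 36.9 ± 0.562 CPM in IRF4-deficient libraries, against 53.3 ± 11.3 CPM in WT. Dnaja1 was not called without IRF4-deficient replicate 2 (edgeR adjusted p 0.0558) or WT replicate 3 (0.155).

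**Figure D5:**
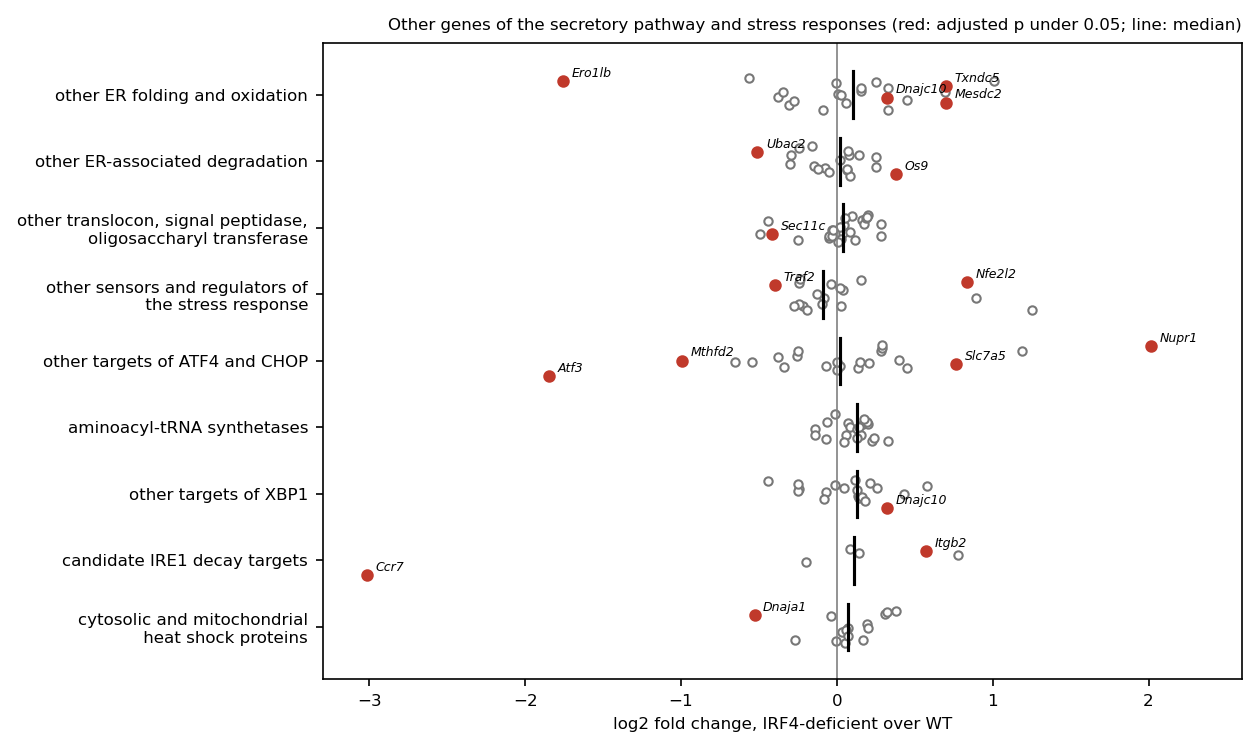
Log2 fold change (IRF4-deficient over WT) of the further genes, with 1 row per list. Red points are called genes and black lines the list medians. Medians lie between -0.09 and 0.13.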

How the data were processed

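RNA-seq counts per gene symbol for 6 libraries were deposited by the authors as raw whole numbers with differing column totals. STAR, HTSeq, DESeq2 and the build mm10 are named in the submitters' processing notes, with no roles or versions. For the annotation and the strand setting, the entry is not given in the sources used here. WT columns were tied to samples through the source names in the labels. The numbers of the WT columns differ from those of the sample titles. Replicate numbers and the replicate block follow the titles.

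Genes passing edgeR's filterByExpr (11934 of 14535) were scaled by TMM and tested with edgeR 4.0.16 in R 4.3.3 (glmQLFit with robust shrinkage, glmQLFTest), with a prior count of 0.125. The SE and 95% intervals derive from the quasi-likelihood F statistic. These steps were tested on simulated data. Libraries of a group differed by more than counting noise (chi-square per degree of freedom 7.66 to 15.9), and each counted once. Alternatives were DESeq2 1.42.0, voom in limma 3.58.1, other scaling factors and filters, no robust shrinkage, the replicate block, removal of Rn45s and Malat1, and omission of each library.

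The members and lists were chosen with earlier results of these data known. All members were named, with Irf4 and up to 4 genes of smallest p from each further list; other genes are markers or are marked as chosen after their values were seen. Promoters are from RefSeq (GRCm38.p6), gene positions and exon lengths from GENCODE M21 (GRCm38). Protein sequences were not used here.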

Additional observations from a re-analysis of the deposited data

How the results depend on the processing

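Over 15 alternatives 5 to 8 members were called lower and 0 higher. The same fits called 904 to 1275 of all genes lower and 868 to 1243 higher. Atf6, Eif2ak3, Sdf2l1, Ssr1 and Sesn2 were called lower in each, and Hspa5 in each but the fit without WT replicate 1. When single libraries were left out, 1 to 2 genes were called lower among chaperones and folding enzymes, 1 to 2 among stress transcription factors and targets, and 1 to 2 among degradation and translocation members. With no filter, which lets Chac1 be tested, 2 stress transcription factors and targets were called lower, where 8.69% of all genes were. Some uncalled members near 0 changed sign: the log2 fold change of Sel1l was 0.0094 with limma-voom and 0.0032 without Rn45s and Malat1. With single libraries left out it ranged from -0.10 to 0.12 for Sel1l, -0.0162 to 0.11 for Calr, -0.0612 to 0.12 for Hyou1, -0.27 to 0.15 for Dnajb9, and -0.0036 to 0.24 for Manf. The ranges were -0.10 to 0.22 for Syvn1, -0.28 to 0.0503 for Selk, -0.23 to 0.0408 for Sec61b, -0.0297 to 0.19 for Ern1 and -0.10 to 0.0516 for Xbp1. The cause was not tested.

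Equal replicate numbers did not pair the libraries, with correlations of deviations of -0.005, 0.051 and -0.011, and not every library correlated best with its own number. With the replicate block the same 6 members were called lower and 0 higher, where 9.86% of all genes were called lower, and of all genes 1090 were called higher and 1177 lower. The scaling alternatives moved the median of all genes by less than 0.1 on the log2 scale. No library had fewer than 7421605 counts, and the spread between 3 libraries a group limits which small changes could be called.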
